A study of Mus musculus with 8 samples.

Results

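The dystrophin-glycoprotein complex was followed through 8 of its genes, *Dmd*, *Utrn*, *Dag1*, *Sgca*, *Sgcb*, *Sgcd*, *Dtna* and *Sspn*, which were chosen by gene symbol from the 16686 genes of the expression table. All 8 genes were found, and all 8 passed the filter on low counts, which left 12542 genes for testing. RNA came from the tibialis anterior (TA), a fast-twitch muscle of the lower leg, of 8 male mice on the FVBN background, 4 wild-type (WT) and 4 C2-/-, with one library per mouse. The C2-/- mice lack *Mybpc2*, the gene of fast myosin binding protein-C, because a Neo cassette between LoxP sites takes the place of its exons 2 to 22. The deletion is present in every tissue of these mice and not only in muscle fibres. The mice were 22 months old by their age label, while another entry in the labels gives a growth period of up to 2 months for both genotypes. No treatment separated the groups, and the labels do not say whether the mice shared litters.

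Dystrophin ties the actin cytoskeleton beneath the muscle fibre membrane to dystroglycan, a receptor that binds laminin in the basement membrane. The sarcoglycans and sarcospan form a subcomplex in the membrane that steadies this link, and dystrobrevin and the syntrophins attach signalling proteins such as neuronal nitric oxide synthase to its inner face. Utrophin is the close relative of dystrophin that sits at the neuromuscular junction in adult muscle and along the whole membrane in regenerating fibres. Loss of dystrophin causes Duchenne muscular dystrophy, and loss of a sarcoglycan causes a limb-girdle form of the disease.

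The libraries held between 25425993 and 29747692 expected counts, and a level of 3 counts corresponded to 0.101 to 0.118 CPM (counts scaled to the depth of the library), which covers counting error only. *Mybpc2* was at 4964 to 7392 CPM in the 4 WT mice and at 3.85 to 38.3 CPM in the 4 C2-/- mice, with C2-/- replicate 3 the highest of the latter. The summed level of 7 markers of muscle fibres (*Acta1*, *Ckm*, *Myh4*, *Myh1*, *Tnnt3*, *Pvalb* and *Mylpf*) lay between 144946 and 190009 CPM in WT and between 152621 and 170732 CPM in C2-/-. WT replicate 2 stood somewhat apart, with a mean Spearman correlation of 0.963 with the other libraries against 0.98 to 0.983 for the rest. The 6 immediate early genes were high in WT replicates 2 and 4 and in C2-/- replicate 2, where *Fos* was at 70.9, 245 and 123 CPM and elsewhere at 0.901 to 7.8 CPM. Since whole muscle was sequenced, fewer cells of a type and less RNA per cell cannot be told apart.

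The genes differ widely in size. In RefSeq (GRCm38.p6, the build of the table), *Dmd* spans 2390 kb (chrX:82814664-85205050), *Sgcd* 1018 kb (chr11:46971077-47989451) and *Utrn* 488 kb (chr10:12382187-12869888). *Dag1* spans 59.1 kb (chr9:108204861-108263977), *Sspn* 33.4 kb (chr6:145931873-145965225), *Sgcb* 15.0 kb (chr5:73632749-73647737) and *Sgca* 13.6 kb (chr11:94962777-94976327). The longest coding transcript in the GENCODE annotation had 14910 bases for *Dmd* and 12382 for *Utrn*, against 1724 for *Sgca* and 2450 for *Sgcd*. For *Sgcd*, the deposited values point to a longer transcript than this, as given below. All counts are sums over a whole gene, so the full-length and short isoforms of dystrophin cannot be told apart. Exons of *Dtna* and *Sspn* overlap those of antisense genes (*Gm47898* and *Sspnos*), and since the sources used here do not state whether counting used the strand, the counts of *Dtna* and *Sspn* are uncertain to that extent.

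The 250 bases before an annotated RefSeq start are shown for 3 genes to which the results return, 2 whose levels moved together from mouse to mouse (*Dmd* and *Sgcd*) and 1 that did not follow them (*Sgca*). They are printed from 5′ to 3′ on the strand of the gene, with capitals for each E-box and for the CArG box, the motif of serum response factor. The E-box is the pattern CANNTG, bound by MyoD and its relatives. The pattern is its own reverse complement, though a single site need not be. The *Dmd* window is chrX:82948620-82948869 on the plus strand, the *Sgcd* window chr11:47379326-47379575 on the minus strand and the *Sgca* window chr11:94976328-94976577 on the minus strand. The *Dmd* and *Sgcd* windows lie inside the span of their gene, upstream of one of its transcripts, and the *Sgca* window ends at the gene's outer start.
Dmd: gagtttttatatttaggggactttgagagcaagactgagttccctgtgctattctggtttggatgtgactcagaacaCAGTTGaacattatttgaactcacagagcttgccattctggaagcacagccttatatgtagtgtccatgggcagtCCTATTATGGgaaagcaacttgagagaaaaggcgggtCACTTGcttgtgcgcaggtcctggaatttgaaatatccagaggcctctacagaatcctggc
Sgcd: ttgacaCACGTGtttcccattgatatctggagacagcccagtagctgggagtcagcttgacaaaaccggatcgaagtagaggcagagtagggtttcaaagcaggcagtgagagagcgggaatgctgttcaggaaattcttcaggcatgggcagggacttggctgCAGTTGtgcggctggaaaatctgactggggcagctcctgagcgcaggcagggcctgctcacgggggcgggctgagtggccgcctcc
Sgca: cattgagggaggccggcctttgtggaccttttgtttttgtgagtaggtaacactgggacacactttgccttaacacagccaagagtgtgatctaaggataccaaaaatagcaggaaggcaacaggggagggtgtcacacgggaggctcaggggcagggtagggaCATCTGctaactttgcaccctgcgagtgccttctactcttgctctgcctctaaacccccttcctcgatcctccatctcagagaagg

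The *Dmd* window shown held E-boxes beginning 173 and 61 bases before the start and a CArG box beginning 98 bases before it, and none of these overlapped. A further *Dmd* window, chrX:85048045-85048294, which is not shown, held 0 E-boxes and 0 CArG boxes. The *Sgcd* window held E-boxes 244 and 86 bases before the start, and the *Sgca* window held 1 E-box, 86 bases before it. Windows were found for 7 of the 8 genes (10 windows in all, none for *Dtna*). An E-box was present in 7 of these 10 windows and in 66.2% of all 32851 windows of this length, so the E-box did not set the complex apart. The windows of *Dag1* overlap, and the E-box counted in each of them is the same site. The CArG box was present in 1 of the 10 windows, the *Dmd* window shown, and in 1.47% of all windows. A match of letters is a description and does not show that a factor binds there.

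Between genes, levels were compared per transcript length as TPM, which scale the counts by transcript length and by depth. For *Sgcd*, *Dmd* and *Utrn* the lengths behind the TPM did not follow the longest coding transcripts above, as given below. The order of the genes depends on these lengths. *Sgca*, encoding α-sarcoglycan, had the highest level at 411 ± 32.4 TPM (SD over the 8 mice of both genotypes, as for all values of this paragraph), and *Dag1*, encoding dystroglycan, followed at 125.0 ± 16.1 TPM. *Dtna* (α-dystrobrevin) was at 51.2 ± 9.64 TPM, *Sgcb* (β-sarcoglycan) at 38.5 ± 5.23 TPM and *Sgcd* (δ-sarcoglycan) at 27.7 ± 9.15 TPM. *Dmd* itself was at 21.7 ± 3.31 TPM, *Sspn* (sarcospan) at 14.1 ± 3.51 TPM and *Utrn* at 4.21 ± 0.949 TPM. The ranges of *Sgca*, *Dag1* and *Dtna* did not overlap one another, and *Utrn*, at most 5.56 TPM, lay below every other gene in every mouse. The neighbours from *Dtna* down to *Dmd* were not separated beyond their spread, since *Dtna* and *Sgcb*, *Sgcb* and *Sgcd*, and *Sgcd* and *Dmd* kept this order in 7 of 8 mice each with overlapping ranges. *Dmd* exceeded *Sspn* in 8 of 8 mice, also with overlapping ranges. The mRNAs of the sarcoglycans were far from equal, with 8.91 to 13.8 transcripts of *Sgca* per transcript of *Sgcb* in a mouse.

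**Figure D1:**
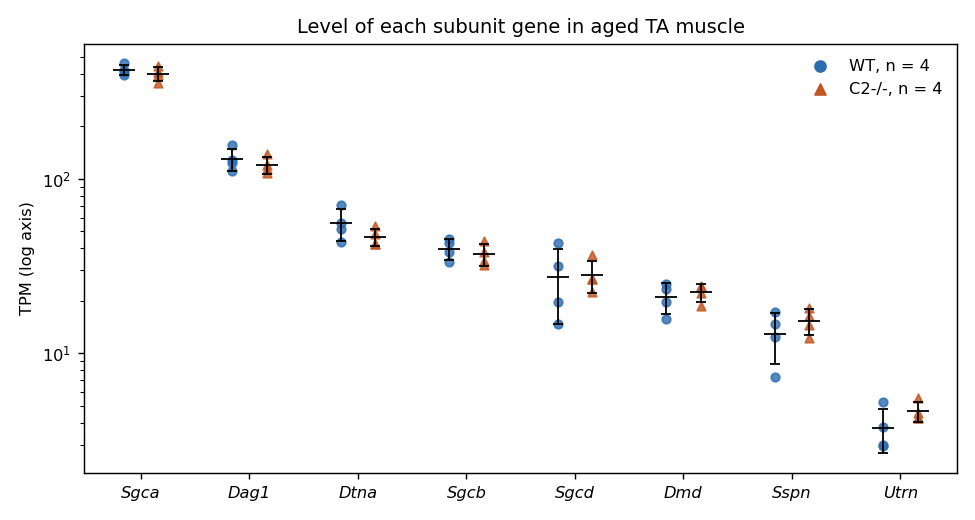
TPM (log axis) of the 8 genes in each mouse, ordered by mean level. Circles are WT and triangles C2-/- mice, and bars give the mean ± SD of each genotype (n = 4). *Sgca* lies at 353 to 460 TPM and *Utrn* at 2.96 to 5.56 TPM, with the genotypes overlapping for every gene.

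The comparison of genotypes asked whether the mRNA of the complex differed in aged TA muscle without fast myosin binding protein-C. None of the 8 genes passed the test. An adjusted p under 0.05 (quasi-likelihood test of edgeR, Benjamini-Hochberg method over all tested genes) was reached by 0 of 8 genes, where 0.0319% of all tested genes reached it, and an unadjusted p under 0.05 by 0 of 8 genes, against 5.29% of all genes. DESeq2 and limma-voom also gave 0 of 8 at an adjusted p under 0.05, and each gave 0 of 8 at an unadjusted p under 0.05. The CPM of the genotypes overlapped for all 8 genes, where it did not overlap for 3.38% of all genes. The estimate was above 0 for 3 genes and below 0 for 5 (4 and 4 when scaled by library size alone). It was above 0 for 5738 of all 12542 tested genes (7408 when scaled by library size alone). The median log2 fold change (C2-/- minus WT) was -0.08 over the 8 genes and -0.02 over all tested genes.

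*Dmd* was at 53.0, 68.8, 102.5 and 97.8 CPM in WT replicates 1 to 4 and at 66.1, 87.3, 89.7 and 91.5 CPM in C2-/- replicates 1 to 4. The lowest and the highest values were both in WT mice, and the C2-/- values lay between them. The log2 fold change was 0.06 (SE 0.21, unadjusted p = 0.795), with a 95% interval from 0.755-fold to 1.43-fold, and its sign changed without WT replicate 1 (-0.10) or 2 (-0.01).

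*Utrn* was at 14.9, 11.1, 22.7 and 12.8 CPM in WT and at 15.9, 20.7, 15.9 and 17.3 CPM in C2-/-. Every C2-/- mouse exceeded WT replicates 1, 2 and 4, and WT replicate 3 exceeded every C2-/- mouse. The log2 fold change was 0.18 (SE 0.21, unadjusted p = 0.409), with a 95% interval from 0.819-fold to 1.57-fold. Without WT replicate 3 the log2 fold change was 0.44 (unadjusted p = 0.0214, adjusted p = 0.581). Without the 3 mice that were high in *Fos*, an alternative chosen after seeing the data, it was -0.19.

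As utrophin can take the place of dystrophin at the membrane, the ratio of *Utrn* to *Dmd* was followed in each mouse. In CPM it was 0.281, 0.161, 0.222 and 0.131 in WT and 0.24, 0.237, 0.178 and 0.189 in C2-/-. The WT values enclosed all C2-/- values. The mean log2 ratio was -2.39 in WT and -2.26 in C2-/-, a difference of 0.13 (two-sided exact permutation test, p = 0.657, n = 4 per genotype, where 0.0286 is the smallest p that 4 against 4 allow). The difference was -0.04 without WT replicate 4. Per transcript length, in TPM, the ratio was 0.182 ± 0.0523 in WT and 0.209 ± 0.0218 in C2-/- (SD, n = 4). The ratio in TPM depends on the transcript lengths behind the TPM.

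*Dag1*, the gene of the laminin receptor at the centre of the complex, was at 340.1, 419, 434 and 378 CPM in WT and at 328, 333, 334 and 388 CPM in C2-/-. All C2-/- mice except replicate 4 lay below all WT mice, and replicate 4 lay among the WT mice. The log2 fold change was -0.18 (SE 0.12, unadjusted p = 0.142), and its 95% interval ran from 0.737-fold to 1.05-fold.

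*Dtna*, whose protein joins dystrophin to the syntrophins, had the smallest unadjusted p of the 8 genes. It lies on chromosome 18 (chr18:23310006-23659719). Its level was 98.8, 126, 135.0 and 109 CPM in WT and at 92.7, 82.8, 103 and 106 CPM in C2-/-. WT replicate 1 was the only WT mouse within the C2-/- range. The log2 fold change was -0.29 (SE 0.13, unadjusted p = 0.0558, adjusted p = 0.948), with a 95% interval from 0.668-fold to 1.01-fold. Its unadjusted p was 0.0251 without WT replicate 1, where its adjusted p was 0.853.

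Of the sarcoglycans, *Sgca* was at 326, 408, 306 and 348 CPM in WT and at 335, 295, 281 and 341 CPM in C2-/-. WT replicate 2 was the highest mouse and C2-/- replicate 3 the lowest, with the other mice mixed between them. *Sgcb* was at 79.4, 75.1, 85.4 and 89.5 CPM in WT and at 66.4, 83.8, 76.1 and 64.7 CPM in C2-/-, where replicates 1 and 4 lay below every WT mouse. The log2 fold changes were -0.15 for *Sgca* (SE 0.12, unadjusted p = 0.256) and -0.18 for *Sgcb* (SE 0.12, unadjusted p = 0.164). *Sgcd* was at 104.0, 84.8, 192 and 170.4 CPM in WT and at 114, 126, 134 and 170.2 CPM in C2-/-. It had the widest spread of the 8 genes within WT, with an SD of 0.56 in log2 CPM against 0.25 in C2-/-. Its log2 fold change was -0.02 (SE 0.25, unadjusted p = 0.943), which was 0.04 when scaled by library size alone.

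*Sspn*, whose protein sarcospan rides on the sarcoglycans, was at 30.7, 19.3, 38.5 and 36.6 CPM in WT and at 30.0, 32.5, 43.3 and 37.2 CPM in C2-/-. WT replicate 2 was the lowest mouse. The log2 fold change was 0.19 (SE 0.21, unadjusted p = 0.373), with a 95% interval from 0.83-fold to 1.58-fold.

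Without WT replicate 2, the library that stood apart, the log2 fold changes were -0.01 for *Dmd*, 0.06 for *Utrn*, -0.14 for *Dag1* and -0.24 for *Dtna*. They were -0.05 for *Sgca*, -0.21 for *Sgcb*, -0.18 for *Sgcd* and 0.03 for *Sspn*, and 0 of these 8 values had an unadjusted p below 0.05. The estimates of *Dmd*, *Utrn*, *Dag1*, *Dtna*, *Sgca* and *Sspn* were thus closer to 0 without this mouse, that of *Dmd* with the other sign. Those of *Sgcb* and *Sgcd* were farther from 0.

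**Figure D2:**
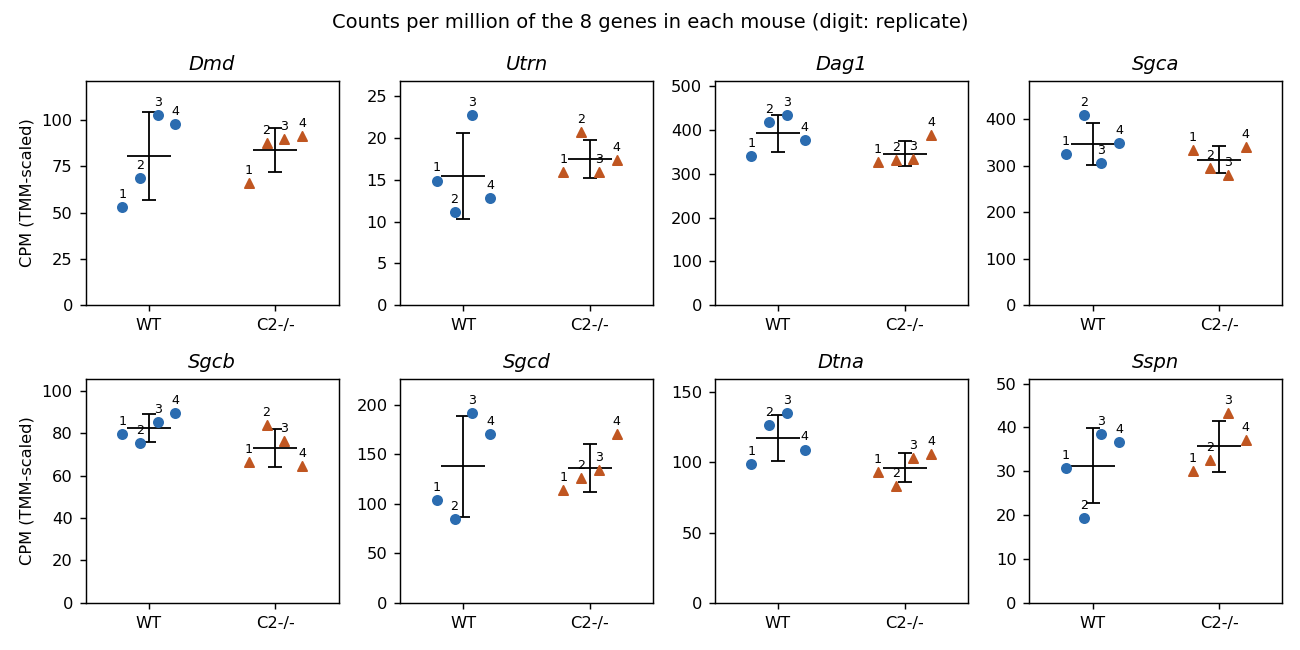
CPM of each of the 8 genes (linear axes from 0), with WT mice as circles, C2-/- mice as triangles, the replicate number beside each point and bars for the mean ± SD (n = 4 per genotype). The genotypes overlap in every panel, and WT spreads more than C2-/- in *Dmd*, from 53.0 to 102.5 CPM against 66.1 to 91.5 CPM.

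The intervals give the size of difference that these mice leave possible. For *Dmd*, *Dag1*, *Sgca*, *Sgcb*, *Sgcd* and *Dtna* the 95% interval stayed within 1.5-fold in either direction, and for *Utrn* and *Sspn* it reached 1.57-fold and 1.58-fold higher. The bound nearest to 1.5-fold among the first 6 was that of *Dtna*, at 0.668-fold. These are intervals of single genes, with no adjustment for the number of genes.

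**Figure D3:**
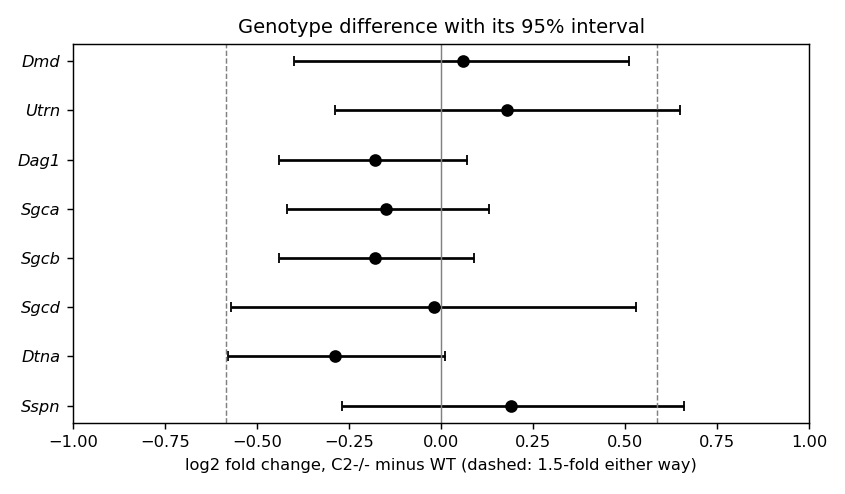
Log2 fold change (C2-/- minus WT) of the 8 genes with its 95% interval from edgeR's quasi-likelihood fit, with dashed lines at 1.5-fold in either direction. Every interval includes 0, and those of *Utrn* and *Sspn* pass the upper line.

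The genes of the complex did not vary together as one group. Over the 8 mice, the log2 CPM of *Dag1* and *Dtna* correlated with r = 0.91 (exact permutation p = 0.000595, adjusted p = 0.0167 over the 28 pairs of genes) and Spearman's rho = 0.93 (exact permutation p = 0.00223, adjusted p = 0.0312). Without the 2 mice farthest from the median of *Dag1*, WT replicates 2 and 3, r was 0.70. *Dmd* and *Sgcd* had r = 0.82 (exact permutation p = 0.013, adjusted p = 0.121) and rho = 0.93 (exact permutation p = 0.00223, adjusted p = 0.0312), and r was 0.97 without WT replicate 1 and C2-/- replicate 1. *Sgca* ran opposite to *Sspn*, with r = -0.80 (exact permutation p = 0.0229, adjusted p = 0.16) and rho = -0.57 (exact permutation p = 0.151, adjusted p = 0.47), but r was 0.06 without WT replicate 2 and C2-/- replicate 3, so this relation rested on those mice. *Dmd* and *Utrn* had r = 0.43 (exact permutation p = 0.279, adjusted p = 0.713) and rho = 0.45 (exact permutation p = 0.267, adjusted p = 0.572). Within WT and within C2-/- (4 mice each, given with no test), r was 0.99 and 0.62 for *Dag1* with *Dtna*, and 0.84 and 0.74 for *Dmd* with *Sgcd*.

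The libraries differed in a way that ran across the genotypes. For this, the log2 CPM of each gene was taken relative to its mean over the 8 mice. The median of these values over 710 genes with transcripts of at least 8000 bases, minus that over 1637 genes with transcripts of at most 1500 bases, was -0.329, -0.506, 0.379 and 0.168 (log2) in WT replicates 1 to 4 and -0.204, 0.171, 0.034 and 0.254 in C2-/- replicates 1 to 4. WT replicates 1 and 2 and C2-/- replicate 1 were thus low for long transcripts. *Dmd* and *Utrn* are themselves among genes this long, and all values come from the same libraries. *Sgcd* followed this measure most closely of the 8 genes, with r = 0.95 (exact permutation p = 0.000496, adjusted p = 0.00397 over 8 relations) and rho = 0.88 (exact permutation p = 0.00724, adjusted p = 0.0579). Its longest coding transcript in GENCODE had 2450 bases, but its WT means were 137.7 CPM and 27.3 TPM. Those of *Sgcb*, with 3786 bases in GENCODE, were 82.4 CPM and 39.9 TPM. The TPM thus took *Sgcd* as longer than *Sgcb*, and *Sgcd* cannot be read here as a short transcript. The WT means of *Dmd* were 80.5 CPM and 21.0 TPM, and those of *Utrn* 15.4 CPM and 3.75 TPM. The TPM thus also took *Sgcd* as longer than *Dmd* and *Utrn*, against their lengths in GENCODE. *Dmd* had r = 0.87 (exact permutation p = 0.00689, adjusted p = 0.0266) and rho = 0.81 (exact permutation p = 0.0218, adjusted p = 0.0581). Without WT replicates 1 and 2, the mice farthest from the median of the measure, r was 0.86 for *Sgcd* and 0.91 for *Dmd*. *Sspn* had r = 0.80 (exact permutation p = 0.00997, adjusted p = 0.0266) and rho = 0.71 (exact permutation p = 0.0576, adjusted p = 0.115), and r fell to 0.47 without these mice, so it rested on them. *Utrn* had r = 0.73 (exact permutation p = 0.0409, adjusted p = 0.0818) and rho = 0.83 (exact permutation p = 0.0154, adjusted p = 0.0581), and its r was 0.49 without them. *Sgca* had r = -0.57 (exact permutation p = 0.139, adjusted p = 0.222) and *Dtna* r = 0.04 (exact permutation p = 0.918, adjusted p = 0.918). *Dag1* had r = 0.19 (exact permutation p = 0.656, adjusted p = 0.75) and *Sgcb* r = 0.27 (exact permutation p = 0.514, adjusted p = 0.685). Without WT replicates 1 and 2, r was -0.07 for *Sgca*, 0.60 for *Dtna*, 0.83 for *Dag1* and 0.47 for *Sgcb*. Among all tested genes, 99.5% had a lower r with this measure than *Sgcd*, 96.8% a lower one than *Dmd* and 94.0% a lower one than *Sspn*. This share was 90.7% for *Utrn*, 65.6% for *Sgcb*, 61.1% for *Dag1*, 53.5% for *Dtna* and 18.1% for *Sgca*. What sets the measure was not tested.

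With this measure as a covariate, an alternative chosen after seeing the data, the SE of the genotype difference went from 0.25 to 0.10 for *Sgcd* and from 0.21 to 0.13 for *Dmd*. The log2 fold change was then -0.12 for *Sgcd* (unadjusted p = 0.265), -0.04 for *Dmd* (unadjusted p = 0.756) and 0.10 for *Utrn* (unadjusted p = 0.54). *Dtna* was at -0.31 (unadjusted p = 0.0418, adjusted p = 0.872), and 0 of the 8 genes had an adjusted p under 0.05.

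**Figure D4:**
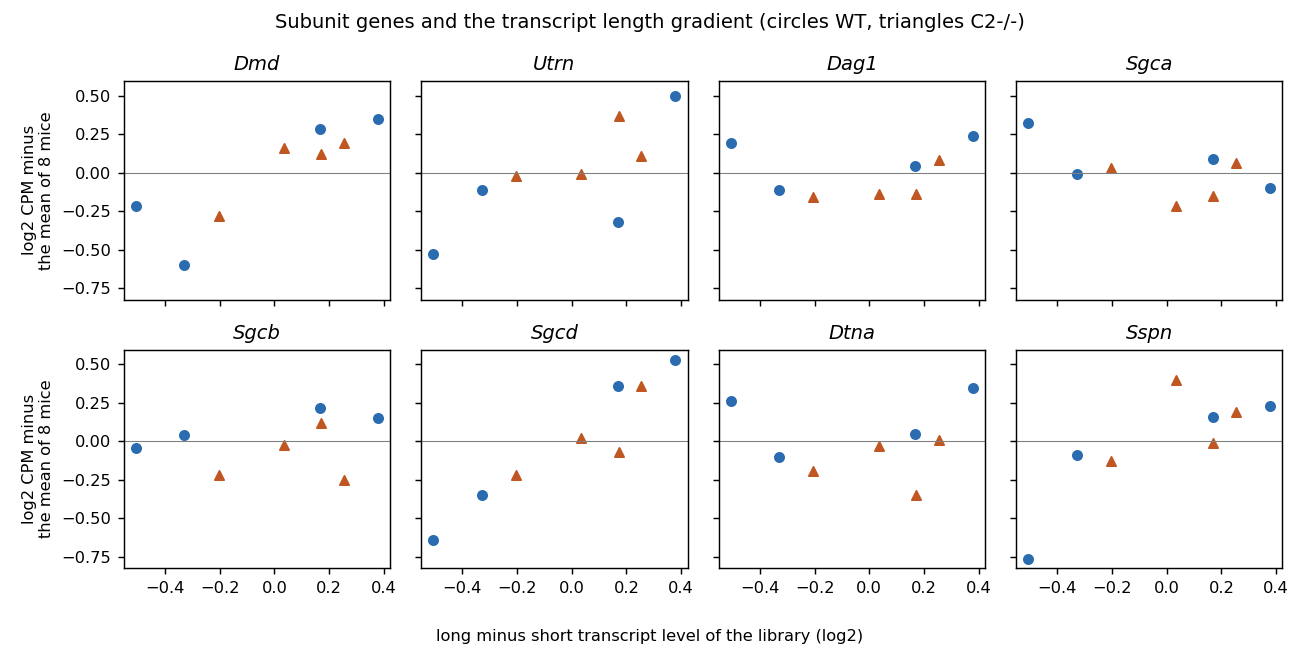
Log2 CPM of each gene relative to its mean over the 8 mice (vertical axis) against the long minus short transcript level of the library in log2 (horizontal axis), with WT as circles and C2-/- as triangles. *Sgcd* (r = 0.95) and *Dmd* (r = 0.87) climb along the axis in both genotypes, while *Dtna* (r = 0.04) shows no slope.

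The genes whose log2 CPM most resembled that of *Dmd* over the 8 mice, among all 12542 tested genes, were *Birc6* (r = 0.984), *Ubr4* (r = 0.978) and *Prrc2c* (r = 0.977), with longest coding transcripts of 11502 to 15928 bases. Those most like *Utrn* were *Socs5* (r = 0.973), *Cep68* (r = 0.961) and *Kitl* (r = 0.959), with longest coding transcripts of 4648 to 5648 bases. These values describe the 8 libraries, and the genes were picked for them. The SD of log2 CPM was larger in WT than in C2-/- for 7 of the 8 genes, the exception being *Sgcb*, and for 67.4% of all tested genes.

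Of the other subunits and partners of the inner face, 6 of 8 listed genes were read and 5 of these were tested, 3 with an estimate above 0 and 2 below, and 0 had an unadjusted p under 0.05. *Nos1*, encoding neuronal nitric oxide synthase, was at 156, 140.2, 222 and 169 CPM in WT and at 269.6, 254, 202 and 157 CPM in C2-/-, with a log2 fold change of 0.36 (SE 0.19, unadjusted p = 0.0932, adjusted p = 0.968). *Sntb1* (β1-syntrophin) was low, at 1.75 to 3.1 CPM in WT and 0.555 to 2.23 CPM in C2-/-, with a log2 fold change of -0.75 (SE 0.39, unadjusted p = 0.0852). *Dtnb* (β-dystrobrevin) was at 2.28 to 3.25 CPM in WT and 1.8 to 2.55 CPM in C2-/-, with a log2 fold change of -0.30 (SE 0.21, unadjusted p = 0.18).

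Of 18 genes that were read among those that build the laminin-binding sugar chains of α-dystroglycan, 16 were tested. Their log2 fold changes lay between -0.27 and 0.26 with a median of 0.01, 8 above 0 and 8 below (10 and 6 by library size alone), and 0 had an unadjusted p under 0.05. The smallest p-values were those of the mannose donor enzymes *Dpm1* (-0.19, unadjusted p = 0.192) and *Dpm2* (-0.27, unadjusted p = 0.224) and of the O-mannosyltransferase *Pomt2* (-0.22, unadjusted p = 0.217).

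Outside the cell, 10 of 11 listed ligands of the complex were tested, 9 with an estimate above 0 and 1 below (10 and 0 by library size alone), and 0 had an adjusted p under 0.05. The median log2 fold change of these ligands was 0.21, and 5738 of all 12542 tested genes had an estimate above 0. *Bgn*, encoding biglycan, a matrix proteoglycan that binds dystroglycan and sarcoglycans, was at 63.9, 43.4, 72.7 and 42.3 CPM in WT and at 76.2, 78.4, 81.1 and 74.3 CPM in C2-/-. It was the only one of the 64 tested genes in the 7 lists whose genotypes did not overlap, against 3.38% of all genes, with a log2 fold change of 0.48 (SE 0.18, unadjusted p = 0.021, adjusted p = 0.849). Without the 3 mice high in *Fos*, the log2 fold change of *Bgn* was 0.18 (unadjusted p = 0.215). The summed level of 5 fibroblast markers (*Pdgfra*, *Dcn*, *Lum*, *Dpt* and *Pi16*) moved with it, at 224 to 319 CPM in WT and 336 to 377 CPM in C2-/-, and all 5 had an estimate above 0. Their part in the level of *Bgn* was not tested. *Hspg2* (perlecan) had a log2 fold change of 0.50 (SE 0.28, unadjusted p = 0.109), *Lamc1* (laminin γ1) one of 0.22 (SE 0.14, unadjusted p = 0.136) and *Lama2*, the muscle laminin chain whose loss causes congenital muscular dystrophy, one of 0.19 (SE 0.21, unadjusted p = 0.402).

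The laminin receptors beside dystroglycan were read as a list of the integrin chains *Itga3*, *Itga6*, *Itga7* and *Itgb1* together with *Bcam*. All 5 genes of this list had an estimate above 0, with a median log2 fold change of 0.24, and 0 had an adjusted p under 0.05. *Itga6* was at 13.4, 7.33, 12.4 and 10.6 CPM in WT and at 20.9, 19.1, 10.4 and 19.0 CPM in C2-/-. All C2-/- mice except replicate 3 lay above every WT mouse, with a log2 fold change of 0.66 (SE 0.24, unadjusted p = 0.0207, adjusted p = 0.849). Without the 3 mice high in *Fos* it was 0.38 (unadjusted p = 0.21). *Itga7*, the integrin chain typical of muscle fibres, had a log2 fold change of 0.30 (SE 0.18, unadjusted p = 0.124) and its partner *Itgb1* one of 0.19 (SE 0.11, unadjusted p = 0.102).

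Among 13 tested partners inside the fibre, estimates were above 0 for 6 and below 0 for 7 (9 and 4 by library size alone), and 0 had an unadjusted p under 0.05. *Plec*, encoding plectin, which links dystrophin and β-dystroglycan to desmin filaments, was at 1018 to 1290 CPM in WT and 1273 to 1482 CPM in C2-/-, with a log2 fold change of 0.22 (SE 0.11, unadjusted p = 0.0848). *Cav3*, the caveolin of muscle, had one of 0.18 (SE 0.12, unadjusted p = 0.152), and *Ank3*, an ankyrin, one of -0.34 (SE 0.28, unadjusted p = 0.263), which was 0.11 without the 3 mice high in *Fos*.

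Utrophin marks regenerating fibres and synapses, so genes of both were read beside it. Of 8 tested regeneration genes, 4 had an estimate above 0 and 4 below. *Myh3*, the embryonic myosin heavy chain, was at 1.23 to 2.43 CPM in WT and 1.49 to 8.76 CPM in C2-/-, with a log2 fold change of 1.14 (SE 0.49, unadjusted p = 0.0406, adjusted p = 0.919). *Myh8*, the perinatal chain, was at 1.6 to 4.26 CPM in WT and 2.35 to 7.2 CPM in C2-/-, with one of 0.91 (SE 0.39, unadjusted p = 0.0433, adjusted p = 0.92). Without C2-/- replicate 3, the highest mouse in both, the log2 fold change of *Myh3* was 0.41 (unadjusted p = 0.248) and that of *Myh8* 0.57 (unadjusted p = 0.167). *Utrn* was at 15.9 CPM in C2-/- replicate 3 and at 15.9 to 20.7 CPM over the 4 C2-/- mice. *Ncam1*, a membrane protein of regenerating and denervated fibres, was at 38.2 CPM in WT replicate 2 and at 11.9 to 18.4 CPM in the other 7 mice. Of the other tested regeneration genes, *Myog* (16.7 CPM), *Myod1* (154.8 CPM) and *Mymk* (4.45 CPM) were also highest in this mouse. *Myh3*, *Myh8*, *Myf5* and *Pax7* were not. WT replicate 2 had the lowest *Utrn* level and the lowest long minus short transcript level (-0.506). Whether these genes bear on *Utrn* was not tested. Of 7 genes transcribed at the synapse, 6 had an estimate below 0, as did 6804 of all 12542 tested genes, and 0 of the 7 had an unadjusted p under 0.05. The 6 genes below 0 included the acetylcholine receptor subunits *Chrna1* (-0.55, unadjusted p = 0.119) and *Chrne* (-0.18, unadjusted p = 0.384) and the receptor anchor *Rapsn* (-0.14, unadjusted p = 0.324). *Chrna1* was at 60.3 CPM in WT replicate 2, and without this mouse its log2 fold change was -0.08 (unadjusted p = 0.679).

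Over the 64 tested genes of the 7 lists, 4 had an unadjusted p under 0.05, all with an estimate above 0, where 5.29% of all tested genes had such a p. This number was 12 without WT replicate 3, where the share of all tested genes was 7.75%. It was 2 without WT replicate 1 and 1 without WT replicate 4, where the shares of all tested genes were 5.47% and 4.84%, and 0 list genes had an adjusted p under 0.05 in each of these fits.

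**Figure D5:**
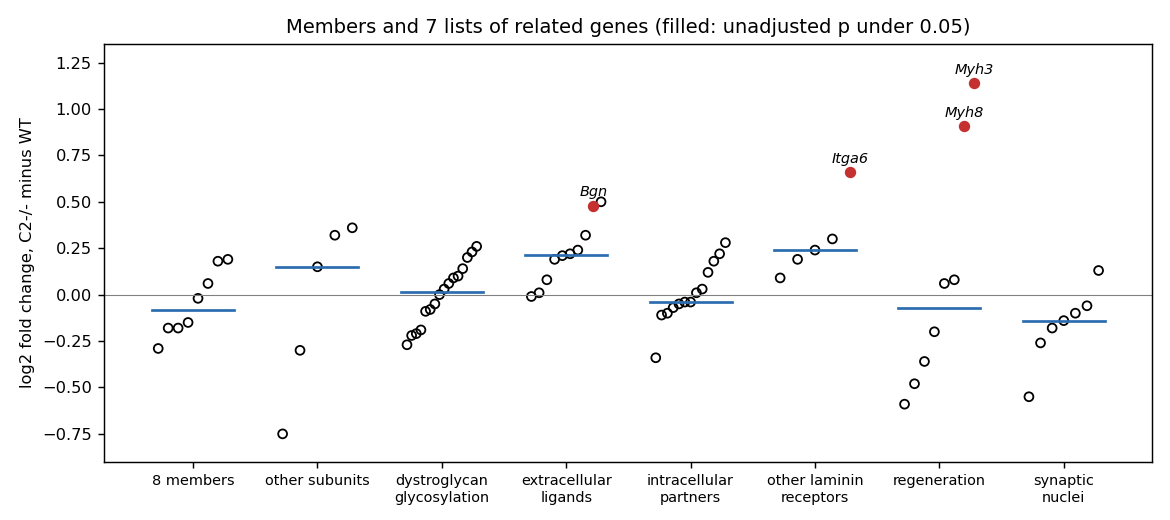
Log2 fold change (C2-/- minus WT) of the 8 genes and of the tested genes in 7 lists, one point per gene, with the median of each list as a line. Filled points have an unadjusted p under 0.05 and none of the points has an adjusted p under 0.05. The 4 filled points are *Bgn*, *Itga6*, *Myh3* and *Myh8*.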

How the data were processed

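Per the labels, RNA enriched with oligo(dT) beads from the TA muscle of 4 WT and 4 C2-/- male mice was sequenced on DNA nanoballs. The submitters' processing notes name HISAT, Bowtie2, DESeq2 and GRCm38.p6. The authors deposited expected counts per gene, without normalization (5.5% to 6.53% of a mouse's values were not whole), and TPM, their expected counts scaled by transcript length and depth. In all, 8 further columns of per-mouse values, and the authors' own fold changes, p-values and q-values, were not used. Of 16687 rows, 16686 had a gene ID, and 25 gene symbols were restored from it. Libraries held 25425993 to 29747692 counts, and no 2 libraries of a genotype agreed within sampling noise.

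Groups follow the sample titles. Expected counts were rounded and tested with edgeR 4.0.16 (quasi-likelihood, TMM factors of 0.929 to 1.03, default filter on low counts, Benjamini-Hochberg adjustment over 12542 genes) in R 4.3.3. Standard errors were derived from the fold change and F. CPM are TMM-scaled, and log2 CPM used a prior count of 2. Levels between genes used TPM. Exact permutation tests (scipy 1.17.1) were two-sided. The study's methods name limma and voom for these data, which were run as an alternative (limma 3.58.1), with and without sample quality weights. The other alternatives were DESeq2 1.42.0, RLE size factors, library size alone, no filter, at least 10 counts in every mouse, unrounded counts, a replicate block and leaving out each mouse. Another 2 were added after seeing the data: leaving out the mice high in *Fos*, and a transcript length covariate, for which 98.5% of tested genes had a length. The scripts were tested on simulated data. In the genotype tests, p-values weigh the difference against the spread between these mice.

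The 8 genes and the lists were chosen with earlier results of these data known. Named are all 8 genes, the 3 tested genes of each list with the smallest p, list genes whose genotypes do not overlap, *Mybpc2*, *Itga7*, *Nos1*, *Lama2* and *Cav3*, and the 3 genes most like *Dmd* and *Utrn*. The other tested regeneration genes are named only for their level in WT replicate 2. *Sgcz* and *Sntg1* were listed but not analysed here, and some other genes of the pathway are not reported here and were left out of the lists, their counts and the naming rule. Coordinates, starts and promoter windows are from RefSeq (GRCm38.p6) and transcript lengths and exon overlaps from GENCODE. Marker lists were also read for smooth muscle (229 to 366 CPM in WT, 345 to 416 in C2-/-), endothelium (219 to 306, 218 to 286), tendon (58.5 to 175, 91.0 to 241), Schwann cells (30.0 to 81.1, 27.3 to 61.7), adipocytes (82.6 to 117, 82.9 to 121), macrophages (16.3 to 39.6, 29.4 to 46.0) and blood (483 to 6294, 907 to 5886), as summed CPM.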

Additional observations from a re-analysis of the deposited data

Results flagged for a closer look

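Within a group of 4 mice, the extreme mouse stood away from the others by more of the group's range than Dixon's 95% limit in 6 of the 62 groups looked at (31 genes in both genotypes), where chance gives about 1 in 20 groups. Of the complex, *Dmd* was low in C2-/- replicate 1, at 66.1 CPM against 87.3 to 91.5 CPM in the other C2-/- mice, and *Dag1* was high in C2-/- replicate 4, at 388 CPM against 328 to 334 CPM. C2-/- replicate 1 also had the lowest long minus short transcript level of the C2-/- mice, at -0.204, and that of C2-/- replicate 4 was the highest of them, at 0.254. Over the 8 mice, *Dag1* had r = 0.19 with this level (exact permutation p = 0.656), and r = 0.83 without WT replicates 1 and 2. Of the related genes, *Ncam1* was at 38.2 CPM and *Chrna1* at 60.3 CPM in WT replicate 2, and *Myh8* was at 4.26 CPM in WT replicate 3. *Mybpc2*, the deleted gene, was at 38.3 CPM in C2-/- replicate 3 against 3.85 to 4.35 CPM in the other C2-/- mice.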

How the results depend on the processing

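Under 19 alternatives, 0 of the 8 genes had an adjusted p under 0.05, and 139 of their 152 fold changes kept the direction. *Dmd* reversed to -0.02 with sample quality weights, -0.10 and -0.01 without WT replicates 1 and 2, and -0.04 with the length covariate. *Sgcd* reversed to 0.04 with library size alone, 0.05 with limma-voom and with the replicate block, 0.19, 0.11, 0.07 and 0.02 without WT replicates 3 and 4 and C2-/- replicates 1 and 2. Without the 3 mice high in *Fos*, *Utrn* (-0.19), *Sgca* (0.02), *Dpm2* (0.01), *Ank3* (0.11) and *Ncam1* (0.15) reversed, and *Mybpc2* (-8.34) had an adjusted p of 0.11 with fewer mice. *Ank3* (0.0) and *Ncam1* (0.02) also reversed without WT replicate 2. When each mouse was left out, *Dmd* ranged from -0.10 to 0.20, *Sgcd* from -0.18 to 0.19, *Ank3* from -0.55 to 0.0 and *Ncam1* from -0.62 to 0.02. The cause was not tested.

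The number of the 8 genes with an unadjusted p under 0.05, 0 in the main test, was 1 with quality weights and with the length covariate, and 0 to 1 when each mouse was left out. For the related genes, 4 in the main test, it was 1 to 12 when each mouse was left out, while 4% to 7.75% of all tested genes had such a p. Over all genes, the adjusted count of 4 was 39 with DESeq2, 2 without the mice high in *Fos* and 4 to 7 when each mouse was left out. The difference in the log2 ratio of *Utrn* to *Dmd* was -0.04 to 0.32 when each mouse was left out. The genotypes share replicate numbers, but same-numbered mice deviated together with correlations of 0.267, 0.042, -0.051 and 0.021, so the numbers were not taken to pair them. With the replicate block, 4 genes in all had an adjusted p under 0.05, as many as without it, 0 of them among the 8 genes, and the ratio's difference was 0.13 (exact sign-flip permutation p = 0.625, where 0.125 is the smallest that 4 pairs allow). All 8 genes were far above the level of 3 counts, and in the main test the 95% intervals of single genes of the complex reached 0.668-fold and 1.58-fold at most.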
